A study of Homo sapiens with 2 samples.

Results

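Messenger RNA of genes for DNA repair and the Fanconi anaemia pathway was compared in Huh7, an established human hepatocellular carcinoma line, between 1 library of cells transfected with an shRNA against USP22 and 1 library of cells given a control shRNA. USP22 removes ubiquitin from histones as a subunit of the coactivator complex SAGA. The comparison asks which transcripts differ when it is depleted. The genes were taken by name: the FANC, XRCC, MSH, MLH, PMS, BRCA, ERCC, CHEK and PARP symbols followed by a letter or digit, a set of RAD symbols, the ligases LIG1, LIG3 and LIG4, and ATM and ATR. This gave 69 of the 11976 genes listed in each library, and 57 of them were placed in 7 repair pathways. The other 12 matched the names but have their main known roles elsewhere or a less settled role in repair.

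Cells repair damaged DNA by pathways that differ in the lesion they recognise. Mismatch repair corrects replication errors, base excision repair removes small altered bases, nucleotide excision repair cuts out bulky lesions, and end joining and homologous recombination rejoin broken ends. The Fanconi anaemia proteins act on crosslinks between the strands, and the ATM and ATR kinases with CHEK1 and CHEK2 hold the cell cycle while repair proceeds. Many of these genes are transcribed most strongly in dividing cells, and liver carcinoma lines such as Huh7 divide in culture.

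Each group is 1 library, so there is no replicate error, no test was possible, and the words higher and lower refer to this pair of libraries. Values were read as FPKM, fragments scaled to transcript length and to sequencing depth, although no unit is stated. The depth behind them is unknown, and fewer transcripts per cell cannot be told apart from fewer cells with the transcript. Log2 ratios are log2 of (USP22 shRNA + 1) over (control + 1), a scale that understates the ratio of low genes. A gene with a mean of at least 1 FPKM was kept. It was called higher or lower when its log2 ratio reached 1 or -1, named 2-fold below. A gene can differ more than 2-fold in FPKM without such a call, as PARP8 did at 3.32-fold. USP22 was at 7.67 FPKM in the USP22 shRNA library and 58.1 FPKM in the control library, 7.57-fold lower. All 9 hepatic markers that were looked for (AFP, ALB, APOA1, APOB, SERPINA1, TTR, FGB, TF and HNF4A) were listed above 1 FPKM in both libraries, with a sum of 1382 FPKM in the USP22 shRNA library and 2108 FPKM in the control library. Of 5 blood markers, LYZ and CD68 were listed, and they summed to 94.1 FPKM in the USP22 shRNA library and 390.2 FPKM in the control library. Of the hepatic markers, 5 were lower. Of 4 markers of other epithelia, CDX2 was listed, at 2.39 FPKM in the USP22 shRNA library and 16.5 FPKM in the control library. Of 6 markers of endothelium and stroma, PDGFRB and COL1A2 were listed above 0, with a sum of 15.0 FPKM in the USP22 shRNA library and 12.9 FPKM in the control library, and ACTA2 was listed at 0. The part of these differences in the repair genes' values was not tested.

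Repair genes were more often higher than lower in the USP22 shRNA library. Of the 55 kept, 18 (32.7%) were higher, against 24.1% of all 10195 genes kept, and 5 (9.09%) were lower, against 12.2% of all genes. With trimmed mean scaling, 12 of the 55 were higher and 5 lower, and of all genes 19.4% were higher and 17.5% lower. The median log2 ratio, unscaled, was 0.45 for the repair genes and 0.10 for all genes. The summed level of the 69 genes was 841 FPKM in the USP22 shRNA library and 654 FPKM in the control library. Over the 69 genes the levels in the libraries had a Spearman correlation of 0.73, against 0.79 over all listed genes. Among the 18 higher genes were RAD21, PARP4, XRCC4, RAD17, ERCC6L, PARP14, RAD18, CHEK1, MSH3, XRCC2, FANCD2, RAD23B, FANCB, PARP9, RAD50 and FANCL. The 5 lower genes were XRCC3, FANCF, PARP16, RAD54L2 and RAD54L.

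**Figure D1:**
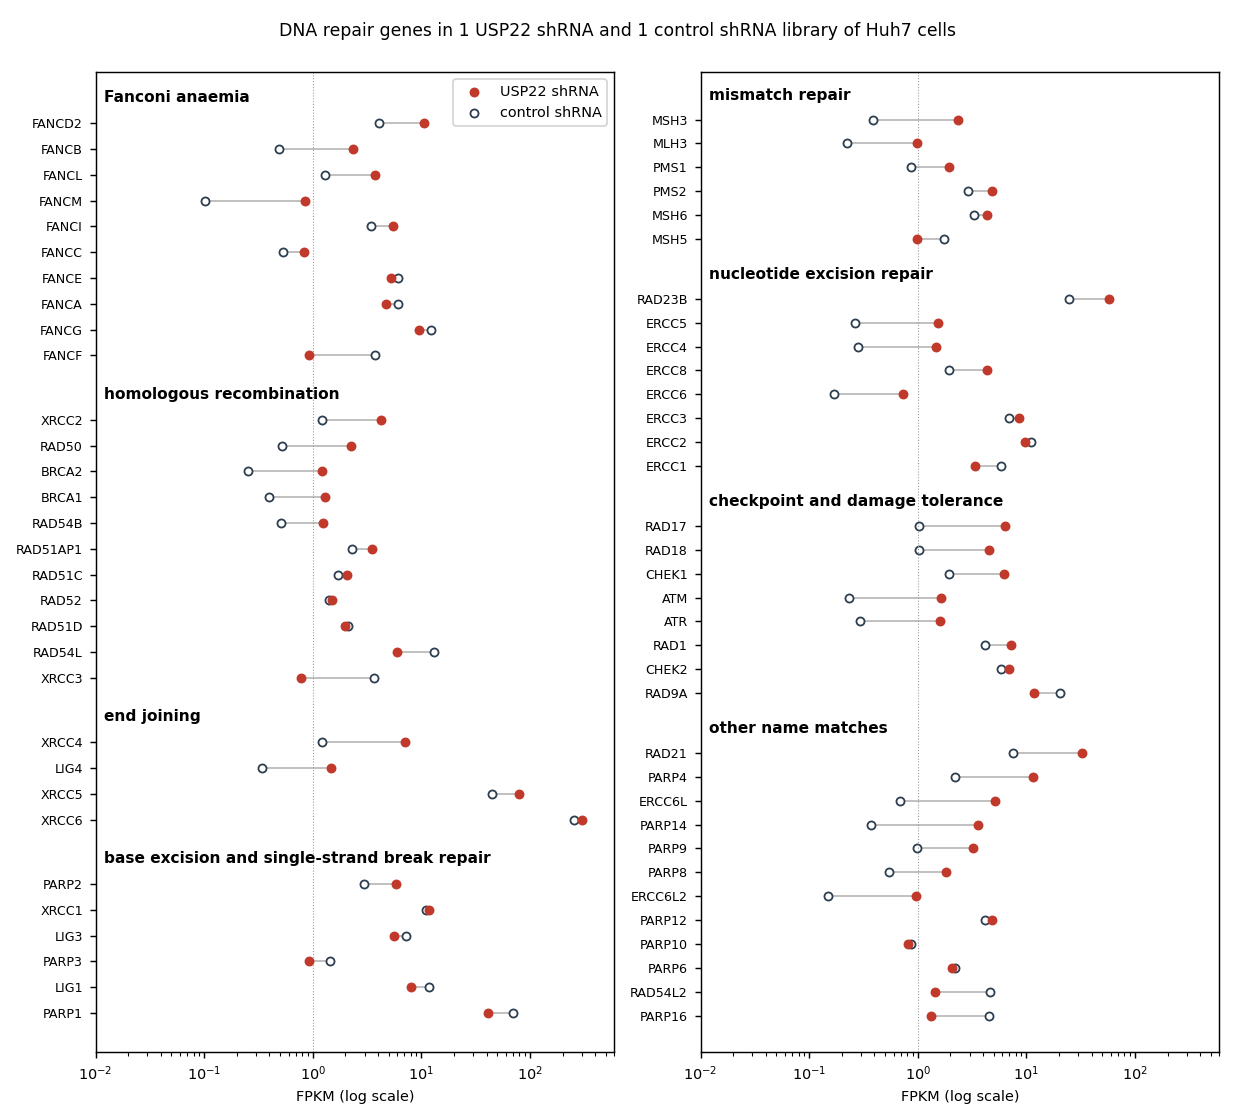
Levels of 65 of the 69 repair genes in FPKM on a log axis, with filled points for the USP22 shRNA library and open points for the control library, 1 library each, sorted by log2 ratio within each pathway; the dotted line marks 1 FPKM. RAD17, XRCC4 and PARP4 lie to the right of their control value, while FANCF, XRCC3, RAD54L2 and PARP16 lie to the left of their control value.

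Most of these differences followed the base composition of the transcripts. Across the 55 kept repair genes the log2 ratio had a Spearman correlation of -0.75 with the GC content of the longest coding transcript, and across 10166 genes of all kinds it was -0.70. Genes are not independent replicates, and all ratios share the same pair of libraries. Of the 18 repair genes with 40% to 45% GC, 13 were higher and 0 lower. Among all genes of that range, 48.7% were higher and 1.18% lower. Of the 7 repair genes under 40% GC, 3 (42.9%) were higher, against 69.3% of all genes in that range. Of the 11 with 45% to 50% GC, 2 were higher and 1 lower, against 17.4% and 5.24% of all genes in that range. Of the 8 with 50% to 55% GC, 0 were higher and 3 (37.5%) lower, against 5.31% and 14.7% of all genes in that range. Of the 11 repair genes with at least 55% GC, 0 were higher and 1 was lower, against 1.80% and 27.0% of all genes in that range. The median GC content was 45.4% for the kept repair genes and 49.3% for all genes kept. A GC-adjusted ratio was therefore computed for every gene as its log2 ratio minus a smooth curve (lowess) of the ratio on GC content over all genes. Whether the trend arose in the cells or in the making of the libraries was not tested.

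After this adjustment 2 of the 55 repair genes (3.64%) were higher, PARP4 among them, against 8.46% of all genes, and 2 were lower, FANCF and RAD54L2, against 8.91% of all genes. The median adjusted ratio was 0.15. The other 19 genes that stood past 2-fold as deposited lay inside it once adjusted, and 32 genes were inside it on both scales.

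**Figure D2:**
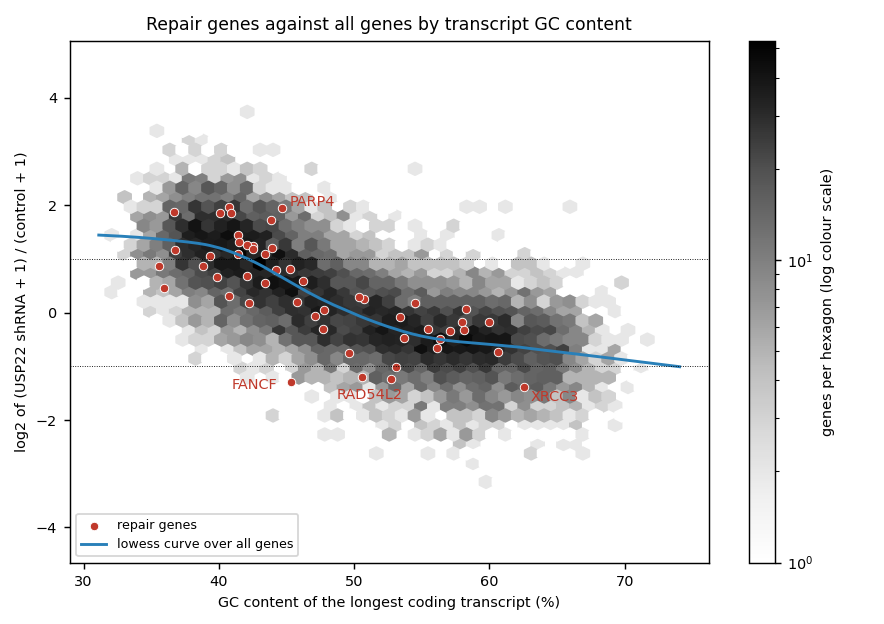
Log2 ratio against transcript GC content in percent, with all kept genes as grey hexagons (darker for more genes, log colour scale), 51 of the 55 kept repair genes as points and the lowess curve over all genes as a line; dotted lines mark 2-fold. The repair genes run along the curve, while PARP4 lies above it and FANCF and RAD54L2 below it.

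In mismatch repair, 3 of 7 kept genes (42.9%) were higher and none was lower, against 24.1% and 12.2% of all genes. With the GC trend removed, the shares of all genes were 8.46% and 8.91%. The median log2 ratio of the pathway was 0.66 as deposited and 0.15 adjusted for GC. MSH3, which acts on insertion and deletion loops, was at 2.34 FPKM in the USP22 shRNA library and 0.391 FPKM in the control library, with a log2 ratio of 1.26 and an adjusted 0.25. MSH6, which acts on base mismatches, was at 4.33 and 3.30 FPKM in the USP22 shRNA and control libraries, an adjusted ratio of -0.84. PMS2, an endonuclease subunit of the pathway, was at 4.87 and 2.91 FPKM in the USP22 shRNA and control libraries, and PMS1 at 1.95 and 0.863 FPKM. The annotation holds 11 pseudogene copies of PMS2, so its reads may be split and its value is uncertain. MSH5, a meiotic family member, was the lowest of the pathway at 0.977 FPKM in the USP22 shRNA library and 1.75 FPKM in the control library, and 47.3% of its exon bases are shared with neighbouring same-strand genes. MLH3 was under the filter, at 0.983 and 0.223 FPKM in the USP22 shRNA and control libraries.

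Among other genes of mismatch repair and its DNA synthesis step, 2 of 11 (18.2%) were higher and 2 lower. Of all genes kept, 24.1% were higher and 12.2% lower. RFC1, the large subunit of the clamp loader, was at 15.4 FPKM in the USP22 shRNA library and 1.78 FPKM in the control library, an adjusted ratio of 1.51. The polymerase delta subunit POLD1 was at 8.93 and 22.4 FPKM, and POLD4 at 3.92 and 8.90 FPKM, in the USP22 shRNA and control libraries. RFC1 and these POLD subunits lay on opposite sides of no change, and the POLD transcripts are richer in GC (57.3% to 65.0%) than RFC1 (41.7%). The sliding clamp PCNA was at 115.8 FPKM in the USP22 shRNA library and 87.7 FPKM in the control library.

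In the Fanconi anaemia pathway, 3 of 8 kept genes (37.5%) were higher and 1 (12.5%) lower, against 24.1% and 12.2% of all genes. The median log2 ratio of 0.19 became -0.01 when adjusted. FANCD2, which with FANCI is monoubiquitinated at crosslinks, was at 10.6 FPKM in the USP22 shRNA library and 4.04 FPKM in the control library, a log2 ratio of 1.20 and an adjusted 0.44. FANCI was at 5.54 and 3.46 FPKM in the USP22 shRNA and control libraries, a log2 ratio of 0.55. FANCD2 has 1 annotated pseudogene copy. FANCL, the ubiquitin ligase of the core complex, was at 3.75 FPKM in the USP22 shRNA library and 1.29 FPKM in the control library. FANCB, which sits beside FANCL in the core, was at 2.34 and 0.488 FPKM. The log2 ratios of FANCB and FANCL, 1.17 and 1.05, became -0.18 and -0.20 with the GC trend removed, so their direction depends on that step.

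FANCF (ENSG00000183161.4_2, chromosome 11), an adaptor of the core complex, was at 0.929 FPKM in the USP22 shRNA library and 3.73 FPKM in the control library, 4.02-fold lower. Its log2 ratio was -1.29, and its adjusted ratio of -1.85 was the lowest of the 55 genes. Its transcript has 45.4% GC, and all genes with 45% to 50% GC had a median log2 ratio of 0.26. Core subunits FANCA, FANCE and FANCG differed less, with log2 ratios between -0.32 and -0.17 and adjusted ratios between 0.15 and 0.37. FANCG was at 9.61 FPKM in the USP22 shRNA library and 12.3 FPKM in the control library. Under the filter were FANCM, the translocase of the pathway, at 0.842 and 0.102 FPKM in the USP22 shRNA and control libraries, and FANCC, at 0.831 and 0.538 FPKM. Core complex members thus lay on both sides of no change.

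The regions around the start sites of FANCD2 and FANCF are shown because these genes of 1 pathway had opposite ratios. Each runs from 250 bases before to 50 bases after the RefSeq start (GRCh38.p14), 5′ to 3′. In all windows printed here, capitals mark matches on either strand to 4 motifs. The CCAAT box is named for its letters. The E2F-like site was TTTCCCGC, TTTGGCGC, TTTGCCGC or TTTCGCGC, and the interferon-response-like site was GAAANNGAAA. The GC box was searched as GGGCGG.
FANCD2 (chr3:10026187-10026486, plus strand): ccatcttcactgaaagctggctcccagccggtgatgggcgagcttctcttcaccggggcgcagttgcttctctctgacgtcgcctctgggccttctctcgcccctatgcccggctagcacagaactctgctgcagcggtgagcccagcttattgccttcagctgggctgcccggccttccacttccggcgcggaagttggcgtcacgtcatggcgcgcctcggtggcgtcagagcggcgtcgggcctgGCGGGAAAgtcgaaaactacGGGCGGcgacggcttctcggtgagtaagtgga
FANCF (chr11:22625774-22626073, minus strand): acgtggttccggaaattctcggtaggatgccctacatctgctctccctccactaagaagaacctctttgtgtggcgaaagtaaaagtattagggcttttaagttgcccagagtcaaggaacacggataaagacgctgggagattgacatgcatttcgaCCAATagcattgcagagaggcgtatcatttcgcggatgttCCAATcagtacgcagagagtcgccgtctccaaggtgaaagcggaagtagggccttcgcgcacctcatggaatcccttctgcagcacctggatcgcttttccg
The FANCD2 window holds 1 E2F-like match and 1 GC box. The FANCF window holds 2 CCAAT boxes and no GC box or E2F-like match.

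Of 13 other kept Fanconi genes, 3 (23.1%) were higher and 3 (23.1%) lower, against 24.1% and 12.2% of all genes. USP1, which removes ubiquitin from FANCD2, was at 23.4 FPKM in the USP22 shRNA library and 5.35 FPKM in the control library, and its activating partner WDR48 at 10.6 and 2.39 FPKM. The helicase BRIP1 was at 2.05 FPKM in the USP22 shRNA library and 0.240 FPKM in the control library. MAD2L2 was lower, at 5.47 and 18.7 FPKM in the USP22 shRNA and control libraries, as were FAAP100, the core partner of FANCB and FANCL, at 1.82 and 7.15 FPKM, and the nuclease scaffold SLX4, at 1.14 and 3.31 FPKM. None of the 13 was past 2-fold when adjusted for GC.

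In homologous recombination, 2 of 9 kept genes (22.2%) were higher and 2 (22.2%) lower, against 24.1% and 12.2% of all genes. The median log2 ratio of 0.18 became -0.38 when adjusted. XRCC2, which helps recombination filaments form, was at 4.26 FPKM in the USP22 shRNA library and 1.22 FPKM in the control library, a log2 ratio of 1.25. RAD50, the long coiled-coil subunit of the break sensor, was at 2.25 and 0.518 FPKM in the USP22 shRNA and control libraries, a log2 ratio of 1.10. Its adjusted ratio was 0.02, and 79.7% of its exon bases are shared with an overlapping same-strand gene, so its value is uncertain. XRCC3, of the same protein family, was lower at 0.780 FPKM in the USP22 shRNA library and 3.64 FPKM in the control library. Of the XRCC3 exon bases 76.7% overlap KLC1 on the opposite strand, and no source used here says whether strand was used in counting. RAD54L, a motor protein of strand exchange, was at 6.01 FPKM in the USP22 shRNA library and 13.1 FPKM in the control library, a log2 ratio of -1.01.

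RAD51AP1, RAD51C, RAD51D and RAD52 had log2 ratios between -0.06 and 0.45. With the GC trend removed RAD51AP1 was at -0.91 and RAD51C at -0.81. BRCA1, BRCA2 and RAD54B were under the filter. BRCA1, which directs breaks to recombination, was at 1.31 FPKM in the USP22 shRNA library and 0.400 FPKM in the control library, and BRCA2, which acts in recombination after it, at 1.21 and 0.255 FPKM. RAD54B was at 1.24 FPKM in the USP22 shRNA library and 0.508 FPKM in the control library. Of its exon bases 59.1% are shared with the same-strand gene FSBP, so its value is uncertain. None of the 12 recombination genes was past 2-fold with the GC trend removed, whether or not low genes were kept out.

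The start region of XRCC2 is shown because, like that of FANCD2, it holds 1 E2F-like match. It also holds 3 GC boxes.
XRCC2 (chr7:152676092-152676391, minus strand): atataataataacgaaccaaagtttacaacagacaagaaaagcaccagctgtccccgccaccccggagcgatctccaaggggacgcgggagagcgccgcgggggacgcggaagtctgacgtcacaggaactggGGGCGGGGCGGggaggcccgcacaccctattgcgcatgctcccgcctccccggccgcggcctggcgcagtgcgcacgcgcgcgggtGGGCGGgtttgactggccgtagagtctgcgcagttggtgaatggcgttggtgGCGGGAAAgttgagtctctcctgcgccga

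Of 19 other kept recombination genes, 8 (42.1%) were higher and 1 (5.26%) lower, against 24.1% and 12.2% of all genes. The helicase RECQL was at 13.3 FPKM in the USP22 shRNA library and 1.97 FPKM in the control library, and RMI1, of the dissolvasome that separates crossed strands, at 4.63 and 0.655 FPKM. The partners of RAD50 in the break sensor were higher with it: MRE11 was at 3.77 and 0.607 FPKM and NBN at 4.34 and 0.928 FPKM in the USP22 shRNA and control libraries. The nuclease subunit SLX1A was lower, at 3.71 FPKM in the USP22 shRNA library and 9.07 FPKM in the control library. After adjustment PSMC3IP, at 1.02, was the member of the 19 past 2-fold.

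End joining rests on the Ku dimer of XRCC5 and XRCC6, which binds broken ends, and on XRCC4 with LIG4, which seals them. XRCC4 was at 7.13 FPKM in the USP22 shRNA library and 1.21 FPKM in the control library, 5.91-fold higher, with a log2 ratio of 1.88 and an adjusted 0.54. LIG4, under the filter, was at 1.47 and 0.339 FPKM in the USP22 shRNA and control libraries. XRCC6 was the most abundant repair gene in both libraries, at 303 FPKM in the USP22 shRNA library and 254 FPKM in the control library, and XRCC5 was at 79.0 and 45.2 FPKM. XRCC6 has 5 annotated pseudogene copies. Of 7 other kept end-joining genes, 4 (57.1%) were higher and 1 (14.3%) lower, against 24.1% and 12.2% of all genes. The kinase PRKDC, which Ku recruits, was at 37.4 FPKM in the USP22 shRNA library and 13.7 FPKM in the control library, the polymerase POLQ of the alternative pathway at 3.90 and 0.351 FPKM, and RIF1 at 3.03 and 0.417 FPKM. PAXX, a small partner of Ku, was lower at 12.3 FPKM in the USP22 shRNA library and 29.7 FPKM in the control library. After adjustment none of the 7 was past 2-fold, with PRKDC at 0.81, POLQ at 0.74, RIF1 at 0.18 and PAXX at -0.45.

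XRCC4 had the highest ratio in end joining, and its start region holds 1 GC box and 1 CCAAT box.
XRCC4 (chr5:83077297-83077596, plus strand): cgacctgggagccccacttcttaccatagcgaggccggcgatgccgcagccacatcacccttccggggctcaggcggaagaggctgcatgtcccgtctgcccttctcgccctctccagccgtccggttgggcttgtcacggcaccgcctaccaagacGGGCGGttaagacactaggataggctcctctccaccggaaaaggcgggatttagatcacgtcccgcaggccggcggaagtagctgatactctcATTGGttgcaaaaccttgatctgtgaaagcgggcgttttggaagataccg

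In base excision and strand break repair, none of 6 kept genes was higher or lower, against 24.1% and 12.2% of all genes. The median log2 ratio of -0.32 became 0.09 when adjusted, so its sign depends on that step. PARP1, the enzyme that senses nicks and marks them with ADP-ribose chains, was at 41.1 FPKM in the USP22 shRNA library and 69.9 FPKM in the control library, a log2 ratio of -0.75 and an adjusted -0.78. PARP2, which shares this role, was at 5.89 FPKM in the USP22 shRNA library and 2.94 FPKM in the control library, a log2 ratio of 0.81. The scaffold XRCC1 was at 11.7 and 10.99 FPKM and its ligase LIG3 at 5.66 and 7.22 FPKM in the USP22 shRNA and control libraries. LIG1, the replicative ligase, was at 8.04 FPKM in the USP22 shRNA library and 11.7 FPKM in the control library, and PARP3 at 0.923 and 1.44 FPKM.

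Of 19 other kept base excision genes, 6 (31.6%) were higher and 3 (15.8%) lower, against 24.1% and 12.2% of all genes. TDG, the glycosylase for thymine mispaired with guanine, was at 14.7 FPKM in the USP22 shRNA library and 1.49 FPKM in the control library, a log2 ratio of 2.65 and an adjusted 1.41. The glycosylase NEIL2, at 4.24 and 1.09 FPKM in the USP22 shRNA and control libraries, was the other gene higher on both scales, with an adjusted 1.78. APEX1, the main endonuclease for sites that have lost their base, was lower at 22.1 FPKM in the USP22 shRNA library and 81.1 FPKM in the control library, with an adjusted ratio of -1.75. TDP1, which frees trapped topoisomerase, was at 1.32 and 4.13 FPKM, with an adjusted ratio of -1.73. The glycosylase SMUG1 was at 1.85 FPKM in the USP22 shRNA library and 5.37 FPKM in the control library. POLB, the gap-filling polymerase, was past 2-fold only when adjusted, at -1.03.

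In nucleotide excision repair, 1 of 6 kept genes (16.7%) was higher and none lower, against 24.1% and 12.2% of all genes. The median log2 ratio was 0.06 as deposited and 0.17 adjusted. RAD23B, which stabilises the damage sensor XPC, was at 57.2 FPKM in the USP22 shRNA library and 24.6 FPKM in the control library. Its adjusted ratio was 0.23, and it has 3 annotated pseudogene copies. The helicases ERCC3 and ERCC2 of the factor TFIIH were at 8.601 and 9.72 FPKM in the USP22 shRNA library and at 6.89 and 11.03 FPKM in the control library. ERCC1 had the lowest ratio, at 3.399 FPKM in the USP22 shRNA library and 5.89 FPKM in the control library, whereas ERCC4, its nuclease partner, was under the filter at 1.47 and 0.283 FPKM. ERCC8, of the branch coupled to transcription, was at 4.39 and 1.95 FPKM in the USP22 shRNA and control libraries. ERCC5 (1.53 FPKM in the USP22 shRNA and 0.266 FPKM in the control library) and ERCC6 (0.726 and 0.171 FPKM) were also under the filter, and 63.2% of the ERCC5 exon bases are shared with a readthrough gene.

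Of 17 other kept nucleotide excision genes, GTF2H1 and GTF2H3 (11.8%), both of TFIIH, were higher and none was lower. The shares of all genes were 24.1% higher and 12.2% lower. GTF2H1 was at 8.43 FPKM in the USP22 shRNA library and 1.52 FPKM in the control library. The sensor XPC was at 8.56 and 15.4 FPKM and GTF2H4 at 4.57 and 8.33 FPKM in the USP22 shRNA and control libraries. With the GC trend removed DDB2, which finds ultraviolet lesions, was at 1.03 and CETN2 at -1.10, and no other of the 17 was past 2-fold.

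In checkpoint signalling and damage tolerance, 3 of 6 kept genes (50%) were higher and none lower, against 24.1% and 12.2% of all genes. The median log2 ratio of 0.999 became 0.05 when adjusted. RAD17, which loads the checkpoint clamp, was at 6.35 FPKM in the USP22 shRNA library and 1.02 FPKM in the control library, 6.21-fold higher, with a log2 ratio of 1.86 and an adjusted 0.66. The clamp subunit RAD1 was at 7.28 and 4.13 FPKM and RAD9A at 11.8 and 20.3 FPKM in the USP22 shRNA and control libraries. These partners lay on opposite sides of no change as deposited, but both were below it when adjusted, at -0.32 and -0.14. RAD18, the ligase that modifies PCNA at stalled forks, was at 4.52 FPKM in the USP22 shRNA library and 1.03 FPKM in the control library. The kinase CHEK1 was at 6.24 and 1.92 FPKM and CHEK2 at 6.88 and 5.85 FPKM in the USP22 shRNA and control libraries. CHEK2 has 4 annotated pseudogene copies, and RAD17 and RAD1 have 2 each. ATM was at 1.63 FPKM in the USP22 shRNA library and 0.232 FPKM in the control library, and ATR at 1.62 and 0.296 FPKM. The means of both kinases are under 1 FPKM.

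The start region of RAD17, the highest of this group, holds 1 GC box and no E2F-like match.
RAD17 (chr5:69369568-69369867, plus strand): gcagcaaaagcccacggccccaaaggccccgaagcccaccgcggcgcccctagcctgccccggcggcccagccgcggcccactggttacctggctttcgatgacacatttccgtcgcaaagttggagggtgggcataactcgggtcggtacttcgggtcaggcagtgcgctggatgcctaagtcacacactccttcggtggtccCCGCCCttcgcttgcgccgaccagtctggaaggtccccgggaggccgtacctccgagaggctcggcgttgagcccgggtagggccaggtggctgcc

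Of 23 other kept checkpoint and tolerance genes, 10 (43.5%) were higher and 3 (13.0%) lower, against 24.1% and 12.2% of all genes. CLSPN, the adaptor between ATR and CHEK1, was at 15.4 FPKM in the USP22 shRNA library and 1.78 FPKM in the control library, with an adjusted ratio of 1.92. The mitotic inhibitor kinase WEE1 was at 14.2 and 2.21 FPKM and the ATR activator TOPBP1 at 11.9 and 2.18 FPKM in the USP22 shRNA and control libraries, with adjusted ratios of 1.10 and 1.09. HLTF was at 7.50 FPKM in the USP22 shRNA library and 0.993 FPKM in the control library. At the other end, H2AFX, the histone that is phosphorylated at breaks, was at 27.4 FPKM in the USP22 shRNA library and 112.3 FPKM in the control library, and MDC1, which reads that mark, at 5.40 and 18.9 FPKM. Their adjusted ratios were -1.23 and -1.31. ALKBH2, a demethylase of damaged bases, was at 2.44 and 7.81 FPKM in the USP22 shRNA and control libraries, an adjusted -1.04.

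Over all 7 pathways, 108 other repair genes were kept of 117 listed. Of these, 35 (32.4%) were higher, against 24.1% of all genes, and 13 (12.0%) were lower, against 12.2%, at a median log2 ratio of 0.27. After adjustment 8 (7.41%) were higher and 8 lower, against 8.46% and 8.91% of all genes, at a median of -0.02. Of 21 proliferation genes, 5 (23.8%) were higher and 4 (19.0%) lower, and after adjustment 2 were higher and 5 lower, at a median of -0.29. TOP2A was at 53.4 FPKM in the USP22 shRNA library and 6.81 FPKM in the control library, and E2F1, a factor that drives replication genes, at 9.60 and 57.6 FPKM. The part of cell cycle differences in the repair genes' values was not tested.

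**Figure D3:**
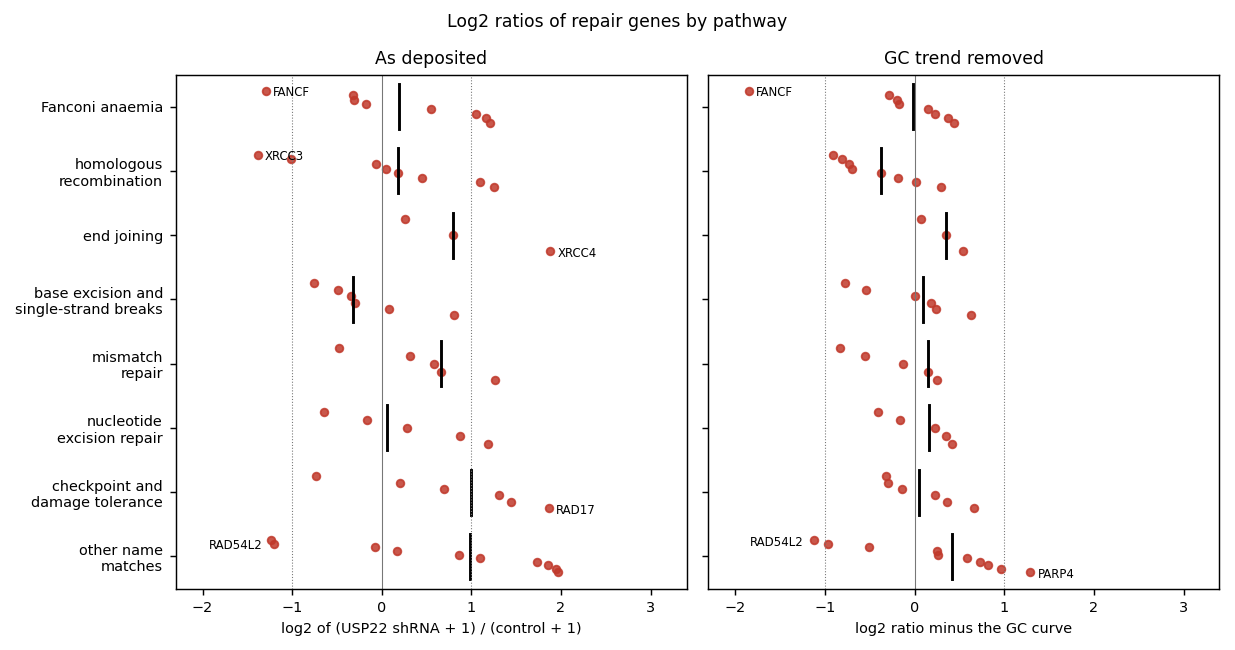
Log2 ratios of 51 of the 55 kept repair genes by pathway, as deposited on the left and minus the GC curve on the right; points are genes, black bars are medians over all kept genes of the pathway and dotted lines mark 2-fold. PARP4, FANCF and RAD54L2 lie past the dotted lines in the right panel.

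Among the 10 kept genes placed in no repair pathway, 5 (50%) were higher and 2 (20%) lower, against 24.1% and 12.2% of all genes. RAD21, the cleavable subunit of the cohesin ring, was at 32.5 FPKM in the USP22 shRNA library and 7.57 FPKM in the control library, a log2 ratio of 1.97 and an adjusted 0.82. ERCC6L, a translocase on mitotic DNA bridges, was at 5.11 and 0.684 FPKM in the USP22 shRNA and control libraries, an adjusted 0.73. PARP4 (ENSG00000102699.5_2, chromosome 13), the ADP-ribosyltransferase of vault particles, was at 11.4 FPKM in the USP22 shRNA library and 2.22 FPKM in the control library, 5.14-fold higher, with an adjusted ratio of 1.29 and 3 annotated pseudogene copies. PARP14 was at 3.58 FPKM in the USP22 shRNA library and 0.374 FPKM in the control library, an adjusted 0.96. PARP9 was at 3.25 and 0.985 FPKM in the USP22 shRNA and control libraries, an adjusted 0.25. Both are known as interferon-inducible members of the family. PARP12, whose start region holds the interferon-response-like letters as that of PARP14 does, had a log2 ratio of 0.18 and an adjusted 0.58. An interferon response was not tested.

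RAD54L2 (ENSG00000164080.13_3, chromosome 3), a helicase that binds the androgen receptor, was at 1.45 FPKM in the USP22 shRNA library and 4.65 FPKM in the control library, with a log2 ratio of -1.21 and an adjusted -1.12. PARP16, of the endoplasmic reticulum, was at 1.34 and 4.51 FPKM in the USP22 shRNA and control libraries, an adjusted -0.96. PARP8 was at 1.81 FPKM in the USP22 shRNA library and 0.544 FPKM in the control library. PARP6 and PARP12 had log2 ratios of -0.08 and 0.18 as deposited, and 0.26 and 0.58 adjusted. Under the filter were ERCC6L2, at 0.969 and 0.151 FPKM in the USP22 shRNA and control libraries, and PARP10, at 0.808 and 0.864 FPKM.

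The start regions of PARP14 and RAD54L2 are shown as those of a high and a low gene of this group. The PARP14 window holds 1 GC box and 1 interferon-response-like match, and the RAD54L2 window none of the marked motifs.
PARP14 (chr3:122680589-122680888, plus strand): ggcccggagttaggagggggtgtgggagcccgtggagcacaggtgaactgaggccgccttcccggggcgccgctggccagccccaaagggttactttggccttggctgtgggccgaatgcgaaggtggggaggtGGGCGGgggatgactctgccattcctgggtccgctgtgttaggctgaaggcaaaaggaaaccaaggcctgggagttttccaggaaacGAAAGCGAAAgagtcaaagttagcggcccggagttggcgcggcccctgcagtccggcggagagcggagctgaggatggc
RAD54L2 (chr3:51538469-51538768, plus strand): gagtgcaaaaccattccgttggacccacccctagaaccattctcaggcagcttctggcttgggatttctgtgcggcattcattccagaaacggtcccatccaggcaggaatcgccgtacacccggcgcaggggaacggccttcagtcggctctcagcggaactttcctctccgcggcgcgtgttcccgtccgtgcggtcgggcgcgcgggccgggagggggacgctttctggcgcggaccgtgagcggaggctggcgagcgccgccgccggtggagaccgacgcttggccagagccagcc

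The filter bears on these counts. Of the 55 kept genes, 43 had at least 1 FPKM in both libraries, and 12 of these were higher and 3 lower. The same count over all genes with at least 1 FPKM in both libraries was not made. The 14 genes under the filter spanned 0.726 to 1.63 FPKM in the USP22 shRNA library and 0.102 to 0.864 FPKM in the control library, and 13 of them had the larger value in the USP22 shRNA library. PARP10 was the exception, and the same count over all genes under the filter was not made. Among all kept genes under 40% GC, 69.3% were higher and 0.287% lower. That is another set and a 2-fold rule, so it cannot stand in for the missing count. These 14 have longer transcripts, with a median of 6935 bases against 3233 bases for the kept genes, and a lower median GC content of 39.98%. With no filter and the GC trend removed, their adjusted ratios ran from -0.59 for RAD54B to 0.64 for PARP10. ATM was then at -0.03, ATR at -0.06, BRCA1 at -0.20 and BRCA2 at -0.36.

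Partner subunits were compared in 14 pairs, which were chosen after the values were seen and some of which share a gene. The partners' log2 ratios lay at least 1 apart in 7 pairs as deposited and in 3 pairs with the GC trend removed and no filter. ERCC1 stood at 2.31 times the FPKM of ERCC4 in the USP22 shRNA library and at 20.8 times in the control library. RAD1 stood at 0.618 times RAD9A in the USP22 shRNA library and at 0.203 times in the control library, and ATR at 0.449 and 0.0378 times ATRIP. When adjusted, these pairs differed in log2 ratio by -0.08, -0.03 and 0.37. The 3 pairs at least 1 apart when adjusted were REV3L over MAD2L2, XRCC1 over LIG3 and XRCC4 over LIG4. REV3L and MAD2L2, both of polymerase zeta, differed by 3.19 as deposited and 1.498 when adjusted, and XRCC1 and LIG3 by 0.38 and 1.11. XRCC4 over LIG4 differed by 0.996 as deposited and 1.002 when adjusted. USP1 and WDR48 kept close to 1 ratio, with 2.21 in the USP22 shRNA library and 2.24 in the control library.

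**Figure D4:**
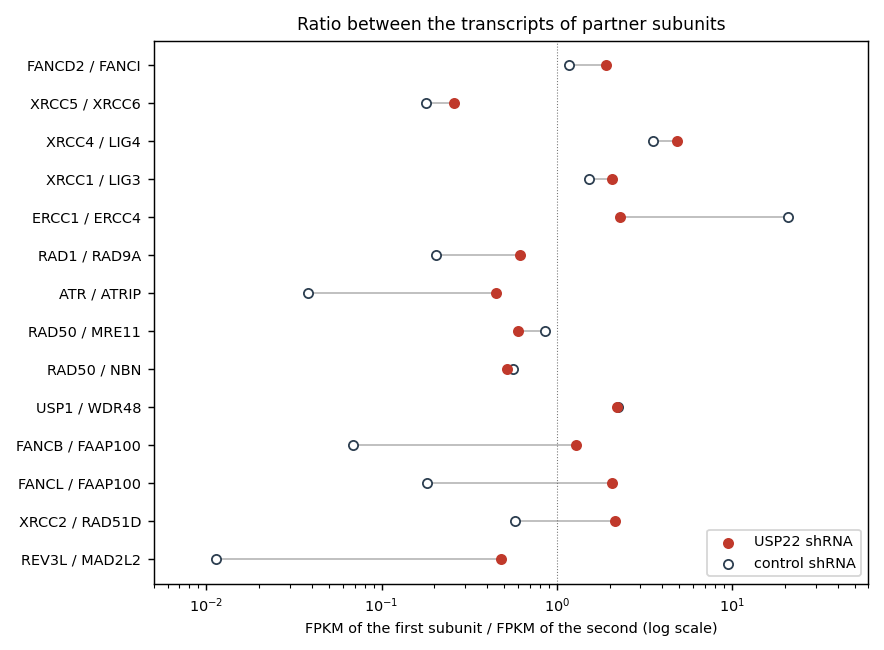
FPKM of the first named subunit divided by that of the second on a log axis, with filled points for the USP22 shRNA library and open points for the control library, 1 library each; the dotted line marks equal levels. The points lie far apart for ERCC1 over ERCC4 and ATR over ATRIP, and together for USP1 over WDR48.

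Repair genes often lie head to head with another gene. Of the 69, 22 (31.9%) had a listed coding gene on the opposite strand whose annotated start lies within 1000 bases, against 15.6% of 11900 listed coding genes (GENCODE 29). In 18 of these pairs both genes were kept, and 11 of the 18 had log2 ratios of the same sign, a count not made over all such pairs. The Spearman correlation between the neighbours was 0.38 for the deposited ratios and -0.11 after GC adjustment. XRCC4 and TMEM167A were both higher, with log2 ratios of 1.88 and 1.54, as were RAD17 and AK6, with 1.86 and 1.80. Adjusted, XRCC4 and TMEM167A were at 0.54 and 0.19, and RAD17 and AK6 at 0.66 and 0.46, all inside 2-fold. FANCF and GAS2, whose 5′ ends overlap, were opposite. GAS2 was at 15.3 FPKM in the USP22 shRNA library and 2.31 FPKM in the control library, with an adjusted ratio of 1.17 against -1.85 for FANCF.

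RefSeq start regions were found for 59 of the 69 genes. PARP4, RAD21, RAD54B, FANCI, XRCC5 and PARP10 were not among them. E2F-like letters, as spelled out above, stood in 10 of the 59 windows (16.9%), against 5.46% of 9302 windows of listed genes and 3.31% of all 35116 windows. The 10 were MSH3, XRCC2, FANCD2, PMS2, MSH6, XRCC6, FANCC, PARP12, FANCA and LIG1. Of the 9 that were kept, 3 were higher and none lower, at a median log2 ratio of 0.31 and an adjusted 0.25. Of all 55 kept repair genes 32.7% were higher and 9.09% lower, and of all genes kept 24.1% and 12.2%. GC boxes stood in 74.6% of the repair windows and 70.7% of those of listed genes, and CCAAT boxes in 39.0% and 36.7%. A TATA box (TATAAA, either strand) stood in 0 of 59 repair windows and in 5.56% of those of listed genes. The interferon-response-like letters stood in PARP14, PARP12 and MLH3, or 5.08% of the repair windows, against 2.63% of those of listed genes. A match says only that the letters are present.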

How the data were processed

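RNA-seq was compared between 1 USP22 shRNA and 1 control shRNA library of Huh7 cells, grouped by the labels. Per the labels' protocols, total RNA was extracted with TRIZOL, treated with DNase and made into libraries with a messenger RNA kit. The submitters' processing notes name the build GRCh37, the aligner HISAT2 2.0.4 and StringTie 1.3.0, without order. The authors deposited 1 value per gene with no unit stated, and these were read as FPKM computed by the authors, which the values cannot tell from TPM. No source used here says why 11976 genes are listed. Low values multiplied by transcript length did not fall on whole steps (best strength 0.0751 over 1660 values in the USP22 shRNA library and 0.0522 over 2653 in the control library, where 1 means whole reads throughout), so depth could not be recovered and count models were not applied.

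The log2 ratio used a pseudocount of 1, low genes (mean under 1 FPKM) were left out, and 2-fold was the size rule, with no test. GC content and length came from the longest coding transcript in GENCODE 29, matched by Ensembl identifier for 11911 genes (99.5%), of a build (GRCh38) other than the authors' and used for gene properties only. The GC curve was a lowess fit with a span of 30% (statsmodels 0.14.6, Python 3.11.15), and the steps were tested on simulated data. Alternatives were pseudocounts of 0.1 and 5, median centring, trimmed mean scaling (30% of ratios and 5% of levels at each end), a 1.5-fold rule, keeping low genes, a stricter minimum of 5 FPKM on the mean, rescaling without mitochondrial genes, and removal of GC and length trends. For 7 symbols on more than 1 row, the row with the higher mean was used in gene lists. The rule named USP22, genes past 2-fold as deposited or adjusted, the ends of each pathway and genes under the filter; of other repair genes, up to 3 at each end per pathway. PCNA, XRCC1, NBN, MRE11, PRKDC, GAS2 and other partners or neighbours were added with their values in view. Some genes that the rule names and the totals count are not reported here. The members and lists were chosen with earlier results of these data known.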

Additional observations from a re-analysis of the deposited data

How the results depend on the processing

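Whether more repair genes than genes in general were higher depended on the processing. Their share was 32.7% against 24.1% of all genes as deposited, but 7.27% against 8.71% with a pseudocount of 5, 3.64% against 8.46% with the GC trend removed and 3.64% against 8.18% with GC and length trends removed. It was also below that of all genes with averaged GC (5.45% against 8.89%) and with the GC trend removed and no filter (4.35% against 8.12%), and above it under the other settings. The 18 higher genes were 4 with a pseudocount of 5, 6 (of 23) with a mean of at least 5 FPKM, 2 with the GC trend removed and 2 with GC and length trends removed. The 5 lower genes were 0, 1, 2 and 2 under the same 4 settings and 8 under the 1.5-fold rule. Settings chosen after seeing the data gave 3 higher and 3 lower with GC content averaged over a gene's coding transcripts, 3 and 2 with the GC trend removed and no filter, and 13 and 3 in the 7 pathways alone. The median of 0.45 became 0.59 with a pseudocount of 0.1, 0.25 with 5, 0.27 with trimmed mean scaling, 0.56 without mitochondrial genes, 0.59 with no filter, 0.20 with a mean of at least 5 FPKM, 0.15 with the GC trend removed, 0.13 with GC and length trends removed, 0.070 with averaged GC, 0.31 in the 7 pathways alone, and -0.0031 with the GC trend removed and no filter, where its sign turned. FANCB turned to -0.18, -0.16, -0.23 and -0.0031 and FANCL to -0.20, -0.12, -0.086 and -0.062 with the GC trend removed, GC and length trends removed, averaged GC, and no filter with the GC trend removed. RAD50 turned to -0.15 with GC and length trends removed and to -0.21 with averaged GC. The cause was not tested. PARP4 was past 2-fold in all 12 settings that kept it, with log2 ratios of 1.10 to 2.31, and FANCF and RAD54L2 in 10 of 11 each, at -0.56 and -0.58 with a pseudocount of 5. The median over all genes, 0.10, was -0.11 with trimmed mean scaling and 0.22 without mitochondrial genes. No paired analysis was possible because each group has 1 library. With 1 library per group and unknown depth, no replicate was left out and no counting error can be given.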
